A study of Drosophila melanogaster with 6 samples.

Results

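Among the Drosophila melanogaster genes that the annotation lists under a CG number, 22 of 17807 gene rows had lost most of their RNA in testes with cbc knocked down and had kept at least 0.8 of the control level in a library with Pcf11 knocked down. A CG number is the identifier given to a gene predicted from the genome, and a gene keeps it as its symbol until a name is assigned. The genes were chosen by their counts in these libraries: at least 10 CPM in both controls, at most 0.25 of the control mean in both cbc libraries and at least 0.8 of it in Pcf11 knockdown library 2. CPM is the count of sense-strand reads of a gene, scaled to 1000000 such reads over all genes of the library. The levels and ratios in these libraries therefore describe the choice and were not tested.

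Polyadenylated RNA of whole testes was sequenced in 3 genotypes, with 2 libraries of about 150 pairs of testes each. Controls carried bamGal4 alone, and the knockdowns were bamGal4>PCf11KD(VDRC 103710) and bamGal4>cbcKD(BL 77426), so every group carried the driver and the controls had no hairpin. Crosses stood at 25 °C for 3 days and the progeny were then kept at 29 °C. Gene counts were used for 5 libraries, and for Pcf11 knockdown library 1 splice junction reads were used. The labels do not say whether libraries of a genotype came from separate crosses, so their spread may be technical.

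In the fly testis, spermatogonia divide and become spermatocytes, which transcribe most genes needed for sperm before the meiotic divisions, and transcripts are stored and used as spermatids elongate. The bam promoter drives Gal4 as spermatogonia turn into spermatocytes, so a hairpin under it acts in these cells and their descendants, not in the somatic cells of the testis. Cleavage factor II, made of Pcf11 and of the Clp1 homologue encoded by cbc, helps to cut a nascent transcript at its poly(A) site and to end transcription. The comparison sets RNA levels after knockdown of one subunit beside those after knockdown of the other.

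The controls and Pcf11 library 2 held between 73600622 and 79053532 sense reads on genes, and the cbc libraries held 18954932 and 20510200. The deep libraries and the shallow ones also followed different title styles, so a batch and the cbc genotype cannot be told apart in the counts. The cbc gene was at 49.7 and 56.7 CPM in the controls, 50.9 in Pcf11 library 2, and 4.70 and 3.66 after cbc knockdown. The Pcf11 gene was at 47.2 and 54.5 CPM in the controls, 19.3 in Pcf11 library 2, then 118 and 112 with cbc knocked down. The fitted log2 fold change of the targeted RNA was -3.92 for cbc and -1.11 for Pcf11, so the knockdowns differed in depth. Whether genes kept their level in Pcf11 library 2 because that knockdown was weaker was not tested. All 19 spermatid marker genes sought were found, and their summed level was 20343 and 19167 CPM in the controls, 16450 in Pcf11 library 2, then 9818 and 9628 with cbc knocked down. In edgeR's quasi-likelihood fit 18 of the 19 were called lower and 1 higher in cbc knockdown, where 37.8% and 36.3% of all genes were, but 2 lower and 8 higher in Pcf11 library 2, where 36.4% and 32.6% were. The 14 spermatocyte markers summed to 1437 and 1432 CPM in the controls, 2456 in Pcf11 library 2, then 2118 and 2223 with cbc knocked down. Their calls were mixed, with 5 lower and 4 higher in cbc knockdown and 7 lower and 5 higher in Pcf11 library 2, and their median log2 fold changes were -0.0025 and -0.33. Of markers of other tissues, 7 accessory gland genes summed to 61.6 and 201 CPM in the controls, 64.1 in Pcf11 library 2, then 339 and 279 with cbc knocked down. The 6 muscle sheath markers summed to 535 and 576 CPM in the controls, 168 in Pcf11 library 2, then 408 and 297 with cbc knocked down, and 8 hub and cyst cell markers to 225 and 236, 109, then 193 and 183. The 5 spermatogonial markers summed to 120 and 136 CPM in the controls, 174 in Pcf11 library 2, then 185 and 185 with cbc knocked down. One of the 5, zfh1, is also among the hub and cyst cell markers, so these sums overlap and are not of germline genes only. The 7 fat body markers summed to 6.57 and 7.21 CPM in the controls, 20.4 in Pcf11 library 2, then 42.3 and 52.1 with cbc knocked down. Of the 6 fat body markers tested, 5 were called higher and 0 lower in cbc knockdown. Their median log2 fold change was 2.69 in cbc knockdown and 1.76 in Pcf11 library 2, so they were higher in both. No marker found was at 0 in all 5 libraries, and the part of these shifts in the results below was not tested. In whole testes, fewer cells of a stage and less RNA per cell cannot be told apart.

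The 22 genes were between 4.28-fold and 15.5-fold lower than control in cbc knockdown, with a median of 4.83-fold, while their median ratio to control in Pcf11 library 2 was 1.0002. Their mean control levels ran from 12.6 to 1008.5 CPM, with a median of 55.1. Replicates were close: control 1 was between 0.850 and 1.24 of control 2 over the 22 genes, and cbc library 1 was between 0.740 and 1.23 of cbc library 2. In Pcf11 library 2, 8 genes lay above both controls, 9 below both and 5 between them. Over all 2803 CG-numbered genes at 10 CPM or more in both controls, 5.17% lay between the controls there.

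**Figure D1:**
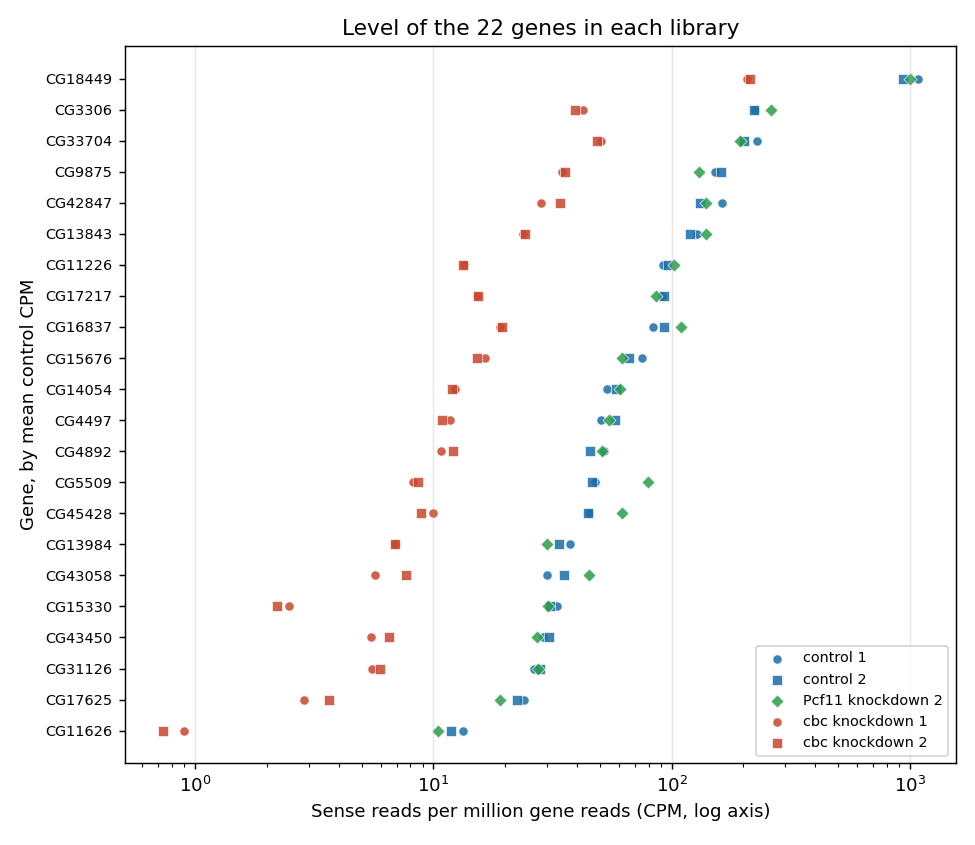
Sense CPM on a log axis for each of the 22 genes in the 5 libraries with gene counts, with 1 point per library and genes ordered by mean control level. In every row the cbc points stand apart to the left, and the Pcf11 point lies near the controls, with CG5509, CG43058 and CG45428 farthest to their right, at 1.70, 1.39 and 1.38 of the control mean.

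CG18449 was the most abundant of the set by a wide margin. It stood at 1079.6 and 937 CPM in the controls, 999.99 in Pcf11 library 2, then 207 and 213 with cbc knocked down. Per kilobase of exon its control level was 1318 RPKM, against a median of 78.4 RPKM over the 22 genes. CG3306 followed at 225 and 221 CPM in the controls, with 262 in Pcf11 library 2, then 42.6 and 39.4 with cbc knocked down. For CG33704 the controls gave 229 and 201 CPM, Pcf11 library 2 gave 194, and the cbc libraries gave 50.3 and 48.7. These 3 genes differed in Pcf11 library 2, where CG3306 lay above both controls, CG18449 between them and CG33704 just below them.

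The next most abundant genes also differed in Pcf11 library 2, which lay below both controls for CG9875, between them for CG42847 and above both for CG13843. CG9875 was at 152 and 161 CPM in the controls, 129.8 in Pcf11 library 2, then 34.8 and 35.7 with cbc knocked down. CG42847 was at 163 and 132 CPM in the controls, 140.1 in Pcf11 library 2, then 28.3 and 33.8 with cbc knocked down. CG13843 was at 127.6 and 119.9 CPM in the controls, 139 in Pcf11 library 2, then 23.8 and 24.1 with cbc knocked down. CG42847 had the widest gap between controls of the 22, at 1.24-fold.

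Further down were CG11226, CG17217, CG16837 and CG15676, which complete the 10 highest in control. CG11226 went from 91.6 and 96.6 CPM in the controls to 13.4 and 13.3 in cbc knockdown, with 102 in Pcf11 library 2. CG17217 went from 91.1 and 92.7 CPM to 15.2 and 15.5, with 85.9 in Pcf11 library 2. CG16837 went from 83.7 and 93.1 CPM to 19.0 and 19.4, with 109 in Pcf11 library 2. CG15676 went from 75.2 and 66.0 CPM to 16.5 and 15.3, with 62.1 in Pcf11 library 2. Of these 4 genes, CG11226 had the lowest cbc ratio.

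The deepest losses were in 2 genes of low to moderate abundance. CG11626 was at 13.3 and 11.8 CPM in the controls (1016 and 871 reads) and at 0.897 and 0.731 in the cbc libraries (17 and 15 reads), and Pcf11 library 2 had 10.4 CPM. CG15330, on the X chromosome, was at 33.0 and 30.8 CPM in the controls and at 2.48 and 2.19 in the cbc libraries (47 and 45 reads), and Pcf11 library 2 had 30.1 CPM. Their cbc ratios to control were 0.0647 and 0.0733. Next came CG17625 at 0.140, CG11226 at 0.142, CG17217 at 0.167, CG5509 at 0.179, CG3306 at 0.184 and CG13843 at 0.194. CG11626 and CG15330 thus stood apart from the rest, whose ratios ran from 0.140 up to 0.234 in CG4892.

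In Pcf11 library 2 the 22 genes ranged from 0.823 to 1.70 of control. CG5509 was highest, at 47.5 and 46.3 CPM in the controls, 79.6 in Pcf11 library 2, then 8.18 and 8.63 with cbc knocked down. CG43058 was at 29.9 and 35.2 CPM in the controls, 45.1 in Pcf11 library 2, then 5.70 and 7.70 with cbc knocked down. CG45428 was at 45.2 and 44.4 CPM in the controls, 61.9 in Pcf11 library 2, then 9.97 and 8.87 with cbc knocked down. These 3 genes, with ratios of 1.70, 1.39 and 1.38, and then CG16837 (1.23) and CG3306 (1.18) were above both controls there. At the other end CG17625 (0.823), CG11626 (0.827), CG9875 (0.828), CG13984 (0.848) and CG15676 (0.879) were below both controls.

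The remaining genes were of moderate abundance. CG14054, on the X, was at 53.7 and 58.3 CPM in the controls and 12.3 and 11.99 in the cbc libraries. CG4497 was at 50.6 and 57.6 CPM in the controls and 11.7 and 10.9 in the cbc libraries, and CG4892 was at 51.9 and 45.5 CPM and then at 10.7 and 12.04. CG13984, CG43450 and CG31126 had control levels between 26.4 and 37.3 CPM and cbc levels between 5.49 and 6.91. CG31126, which RefSeq also lists under the symbol BolA1, was at 27.5 CPM in Pcf11 library 2, between its controls. With reads counted on either strand the cbc ratio of CG31126 was 0.645 in place of 0.211, and that of CG14054 was 0.141 in place of 0.217.

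The choice cut through a continuous range. Of the 2803 CG-numbered genes at 10 CPM or more in both controls, 131 were at or below 0.25 of control in both cbc libraries. Their ratios in Pcf11 library 2 were at most 0.25 in 47 genes, above 0.25 and up to 0.5 in 18, between 0.5 and 0.8 in 44, and 0.8 or more in the 22. Just outside were CG15711 at 0.798 and CG43610 at 0.795 for Pcf11, CG31952 at 0.252 and CG10834 at 0.252 for cbc, and CG11905 with 7.12 CPM in its lower control. Inside, CG4892 (0.247), CG43058 (0.237) and CG33704 (0.234) came nearest to the cbc limit in their higher library. Of all 7691 genes at that control level, 3.26% met the cbc limit.

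**Figure D2:**
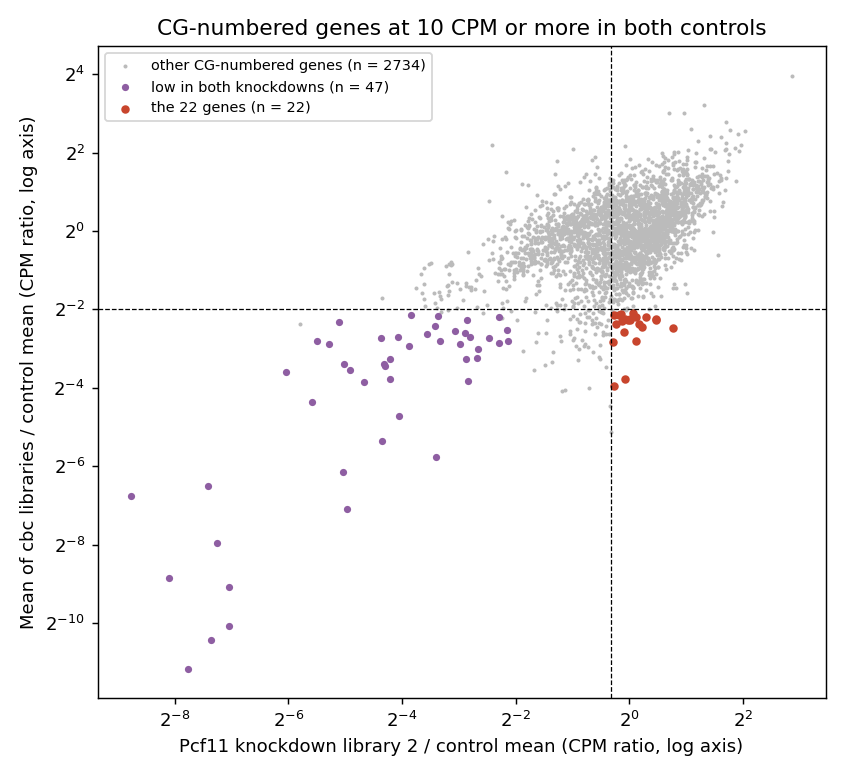
Ratio to the control mean in Pcf11 library 2 (x axis) and over both cbc libraries (y axis), both on log axes, for CG-numbered genes at 10 CPM or more in both controls, with dashed lines at 0.8 and 0.25. The 22 genes fill the lower right corner next to genes that miss 1 limit by little, and the 47 genes low in both knockdowns spread to the lower left.

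The scale of the libraries decides how many genes are chosen. Between totals and TMM factors, which assume that most genes do not change, the median log2 ratio of all tested genes to control moved by -0.25 in cbc knockdown and by 0.29 in Pcf11 library 2. With TMM, 62 CG-numbered genes met the limits and with RLE size factors 75 did, and both sets held all 22. On the TMM scale the median log2 fold change of the 22 genes was -2.52 in cbc knockdown and 0.28 in Pcf11 library 2, against medians of -0.02 and -0.06 over all 13960 genes tested. In edgeR's quasi-likelihood fit all 22 were called lower in cbc knockdown, where 37.8% of genes were. In Pcf11 library 2, 11 were called higher, where 32.6% of genes were, and 0 lower, where 36.4% were. The rule used these contrasts, so the counts describe the choice.

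In the annotation the 22 genes were short and simple. All encode protein. They lie on 2R (6), 3R (6), 2L (5), 3L (3) and X (2). The longest annotated coding sequence had a median of 474 bases, against 1044 over the 2803 expressed CG-numbered genes, and 16 of 22 were under 600 bases, against 24.3%. By coding length CG43450, with 48 amino acids, and CG33704, with 63, were the smallest, and CG4497, with 506, and CG11626, with 486, were the largest. No intron was annotated in 12 of 22, or 54.5%, against 21.8% of the expressed CG-numbered genes. A single transcript was annotated for 18 of 22, or 81.8%, against 51.8%. The median 3' untranslated region of 148 bases was near the 160 of those genes.

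Short coding sequences, no intron and a single transcript were also common in genes that were low in cbc knockdown and intermediate in Pcf11 library 2. Of those 62 genes, 61.3% had no intron, 72.6% had 1 transcript and 71.0% had under 600 coding bases. Of the 47 low in both knockdowns, 14.9% had no intron, 46.8% had 1 transcript and 46.8% had under 600 coding bases. The median 3' untranslated region was shorter in both classes than in the 22 genes, at 96 bases in the 62 and 105 in the 47. Among expressed CG-numbered genes 57 of 612 without introns, or 9.31%, were low in cbc knockdown, as were 74 of 2191 with introns, or 3.38%. For genes low in both knockdowns the shares were 1.14% and 1.83%. These shares are descriptions of lists chosen on the same libraries.

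**Figure D3:**
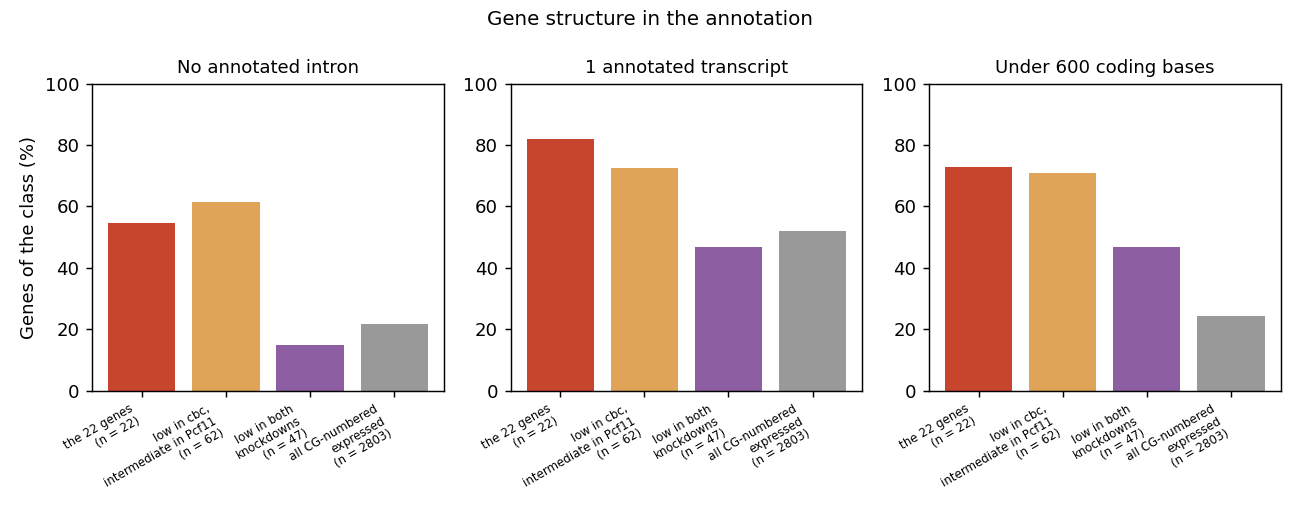
Share of genes (y axis, percent) with no annotated intron, with 1 annotated transcript and with under 600 coding bases, in 4 classes of CG-numbered genes. The 22 genes (54.5%, 81.8% and 72.7%) and the intermediate class (61.3%, 72.6% and 71.0%) stand above the 47 genes low in both knockdowns (14.9%, 46.8% and 46.8%).

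Of the 22 genes, 6 lie wholly within an intron of another coding gene, or 27.3%, against 13.6% of expressed CG-numbered genes. In 4, or 18.2%, the host is on the same strand, against 5.28%. Any overlap with a coding gene on the same strand was annotated for 22.7% of the 22 and 10.3% of expressed CG-numbered genes. The share was 17.7% of the 62 genes low in cbc and intermediate in Pcf11 library 2, and 8.51% of the 47 low in both. CG5509 lies in an intron of CG18549. The host was at 5.39 CPM in control and 148 in cbc knockdown (log2 fold change 4.53 ± 0.10, SE). CG3306 lies in an intron of Tmc, a gene of the transmembrane channel-like family, which went from 2.07 to 20.9 CPM (3.09 ± 0.17). CG16837 lies in an intron of CG13579, which went from 0.493 to 3.03 CPM (2.37 ± 0.27). CG13984 lies in an intron of Ddr, which encodes a discoidin domain receptor and went from 1.26 to 3.27 CPM (1.13 ± 0.24). In Pcf11 library 2 Tmc and CG13579 were also called higher, at 2.09 and 2.21 of control (edgeR adjusted p = 7.3e-05 and 0.0015), while CG18549 and Ddr, at 0.702 and 0.850, were not called.

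The 4 same-strand hosts were thus higher in both cbc libraries than in both controls while the nested genes were lower, and all 4 hosts passed edgeR's test (adjusted p from 3.1e-11 for CG18549 to 0.0012 for Ddr). In the same fit 58.4% of 125 hosts of other expressed CG-numbered genes on the same strand were called higher in cbc knockdown, as were 45.0% of all 6134 tested genes under 10 CPM in control. CG18449 lies on the strand opposite to its host pdm3, a POU-domain transcription factor gene, which went from 45.0 to 57.8 CPM (0.11 ± 0.09, edgeR adjusted p = 0.28) and was not called. CG13843 lies opposite to its host CG31156, which went from 19.8 to 32.9 CPM (0.49 ± 0.10, edgeR adjusted p = 0.00084) and was called higher. Both of these hosts were also higher in CPM in both cbc libraries than in both controls.

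**Figure D4:**
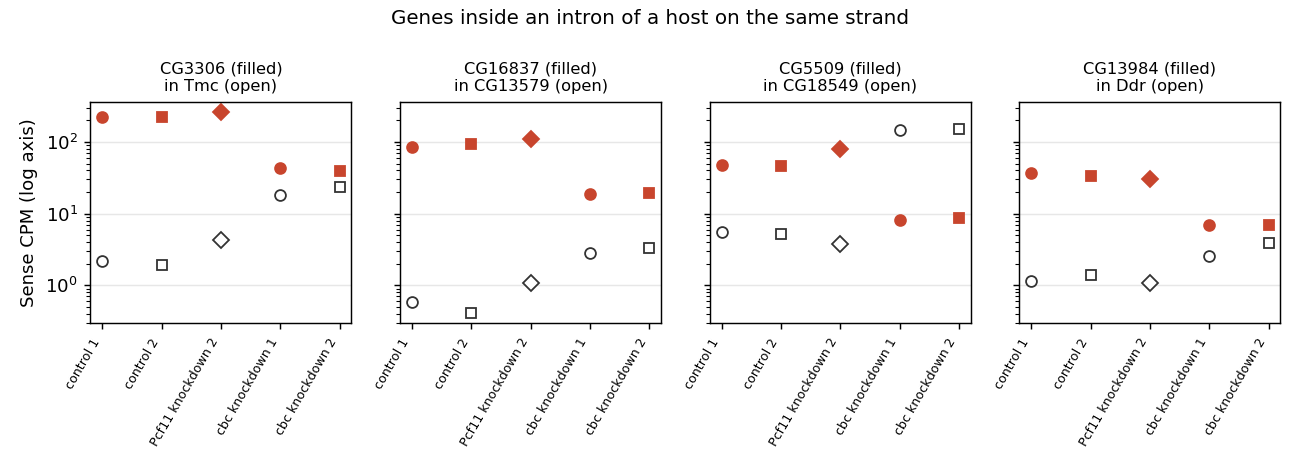
Sense CPM on a log axis in each of the 5 libraries for the 4 genes that lie in an intron on the same strand (filled) and for their hosts (open). In the cbc libraries each nested gene is lower and its host higher than in the controls, and only CG18549, at 148 CPM on average, passes the level of its nested gene CG5509.

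CG11226 and CG45428, both among the 22, lie head to head on 3L and overlap by 3 bases (BDGP6, 22837068 to 22838170 on the plus strand and 22836555 to 22837070 on the minus strand). They were lost to 0.142 and 0.210 of control in cbc knockdown and were at 1.08 and 1.38 of control in Pcf11 library 2. No other pair of the 22 were neighbours. CG18449 lies on 2R between boly, 474 bases away, and CG2127, 416 bases away, on the same strand. In cbc knockdown boly went from 443 to 139 CPM (-1.92 ± 0.09) and CG2127 from 2861 to 1712 CPM (-0.99 ± 0.08), a smaller loss in each case than that of CG18449. In Pcf11 library 2 boly was at 1.02 and CG2127 at 1.14 of control.

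Over 50 tested genes that overlap or adjoin one of the 22, 18 were called lower and 21 higher in cbc knockdown, or 36% and 42%, where 37.8% and 36.3% of all genes were. Their median log2 fold change was 0.08. Among them hbn, a homeobox gene 3573 bases past the end of CG33704, went from 7.48 to 0.428 CPM (-4.36 ± 0.23). In Pcf11 library 2 hbn was at 0.406 of control. CG6583, whose end overlaps that of CG17217 on the other strand by 29 bases, went from 41.6 to 12.1 CPM (-2.04 ± 0.14), and unlike CG17217 it was also low in Pcf11 library 2, at 0.225 of control. CG3088, 197 bases from the start of CG3306, was at 0.433 and 0.421 CPM in the controls and at 0.158 and 0 in the cbc libraries. Its fitted log2 fold change of -2.69 ± 0.75 rests on these few reads, and with reads counted on either strand it was 0.08. The other neighbours named here with smaller changes were chosen after their values were seen.

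Reads on the antisense strand differed between libraries in some of the 22 genes. In CG31126 they stood at 6.34 and 6.60 CPM in the controls, 8.37 in Pcf11 library 2, then 30.8 and 32.9 with cbc knocked down. The gene overlaps the end of Ppox, a protoporphyrinogen oxidase gene on the other strand, by 69 bases. In cbc knockdown Ppox rose from 239 to 530.0 CPM (0.90 ± 0.08), and in Pcf11 library 2 it was at 1.53 of control. In CG42847 antisense reads went from 0.539 and 0.516 CPM to 9.02 and 9.70, and reached 2.80 in Pcf11 library 2. This gene overlaps the end of FucTB, a fucosyltransferase gene, by 72 bases. FucTB went from 424 to 313 CPM in cbc knockdown (-0.68 ± 0.08) and was at 0.963 of control in Pcf11 library 2. Higher antisense reads in cbc knockdown thus stood beside a partner that rose at CG31126 and beside one that fell at CG42847.

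In CG15330 antisense reads went from 2 in each control to 24 and 25 in the cbc libraries, or from 0.0263 and 0.0272 to 1.27 and 1.22 CPM. The end of sws, a phospholipase gene, lies 117 bases away on the other strand. In cbc knockdown sws went from 275 to 505 CPM (0.63 ± 0.09), and in Pcf11 library 2 it was at 2.10 of control. Antisense reads were at least 2-fold higher in both cbc libraries than in either control, with at least 10 reads in each cbc library, in 6 of the 22 genes, or 27.3%, against 14.1% of expressed CG-numbered genes. CG9875, CG4892 and CG43450 were the other 3. They were at least 2-fold lower in both cbc libraries than in either control, with at least 10 reads in each control, in 4, or 18.2%, against 5.17%. These rest on few reads: 25 and 17 in the controls, then 0 and 0 in the cbc libraries for CG18449, and 34 and 26, then 0 and 0 for CG33704. CG5509 had 29 and 28, then 0 and 3, and CG45428 had 40 and 42, then 2 and 3. The cbc libraries were shallower, and the rule required the sense reads of these genes to fall. Whether their antisense reads fell with the sense reads was not tested. The antisense share of stranded reads ran from 3.08% to 3.16% over the deep libraries and was 3.52% and 3.63% after cbc knockdown. The antisense limits were set after values had been seen, and the calls come from the contrast that chose the genes.

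Pcf11 knockdown library 1 had no part in the choice, and its title has the style of the cbc libraries. Its junction file holds 9698064 uniquely mapped reads over annotated introns. All 19 introns of the 10 genes that have any were crossed by reads, from 3 in the first intron of CG11626 to 2534 in the only intron of CG33704 (270 bases, 20950283 to 20950552 on 2R). The only intron of CG42847 (54 bases) had 1760 reads, that of CG16837 (71 bases) had 1532, that of CG17217 (57 bases) had 1384, and that of CG13843 (48 bases) had 855. CG31126 had 277 reads over its intron of 56 bases. In CG9875 the 2 introns had 1184 and 1443 reads, and in CG14054 the 3 introns had between 386 and 595.

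To set these reads beside control levels, junction reads per intron, scaled to 1000000 reads over annotated introns, were divided by the mean control RPKM, and the median log2 ratio of all 6590 genes with introns was set to 0. All 10 genes lay above that median, from 0.28 (CG31126), 0.30 (CG9875), 0.36 (CG11626), 0.66 (CG14054) and 0.72 (CG13843) to 0.77 (CG4497), 0.78 (CG33704), 0.93 (CG17217), 0.97 (CG42847) and 1.01 (CG16837). Their median was 0.75. The 40 genes with introns that were low in both knockdowns ran from -12.15 to -1.17, with a median of -3.02. They did not overlap with the 10, but they had been chosen as low in Pcf11 library 2 over the same controls. The middle 50% of all 6590 genes, between -0.70 and 0.63, also lay above them, so the gap does not set the 10 apart. Of the 40 genes, 38 had junction reads, and the values of the others rest on the reads added per gene. The 24 genes with introns low in cbc and intermediate in Pcf11 library 2 had a median of -0.38, and 937 CG-numbered genes with 1 annotated transcript had a median of 0.40, with the middle 50% between -0.19 and 0.90. The measure mixes a junction count in 1 library with a gene count in others, the groups share the same controls, and no control junction file was analysed, so it gives no test.

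**Figure D5:**
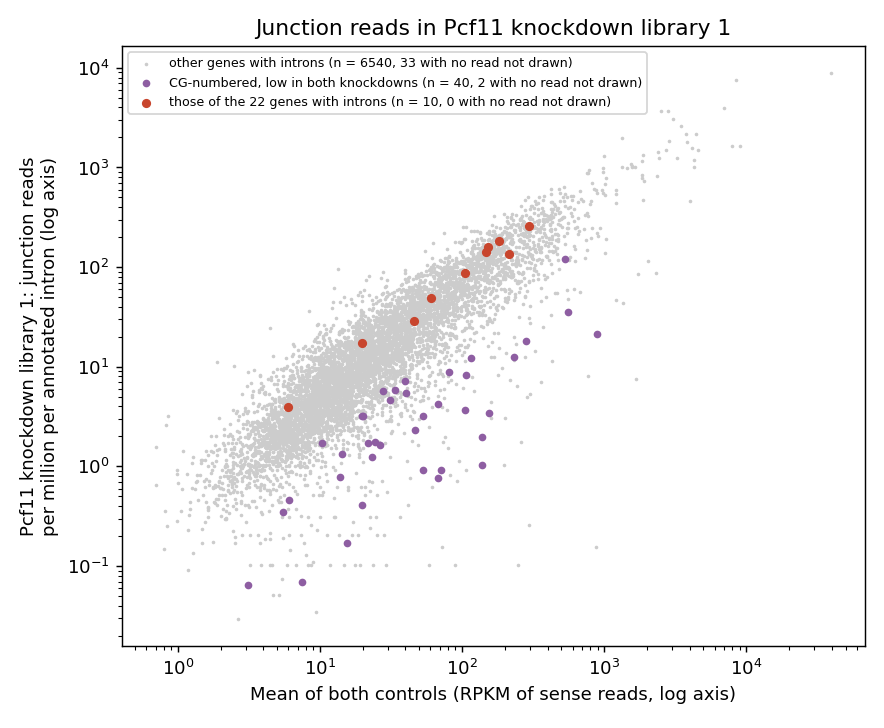
Junction reads per annotated intron in Pcf11 library 1, scaled to 1000000 reads (y axis), against the mean control RPKM (x axis), both on log axes, for genes with introns at 10 CPM or more in both controls. The 10 genes of the set lie within the main cloud and the genes low in both knockdowns lie below it.

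The same numeric limits were met by 21 genes with other symbols, and CG-numbered genes were 51.2% of all 43, against 36.4% of genes at that control level. They were also 52.2% of the 251 genes low in both cbc libraries at any Pcf11 ratio. The most abundant of the 21 was S-Lap2, a sperm leucylaminopeptidase gene. It was at 2110.0 and 2063 CPM in the controls, 3226 in Pcf11 library 2, then 315 and 324 with cbc knocked down. The sperm tail genes Mst84Dd and Mst84Dc, which belong to a cluster of related genes whose reads may not be told apart, were at 0.218 and 0.147 of control in cbc knockdown and at 0.880 and 1.09 in Pcf11 library 2. Vha36-2 and VhaM9.7-d, which encode subunits of the vacuolar proton pump, were at 0.235 and 0.181 in cbc knockdown. CSN1a, axed, Pgant35A and Scgbeta were between 0.159 and 0.207, and cbc itself, the targeted gene, was at 0.0786 and met the limits too.

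Regulators of the spermatocyte programme were read beside these genes. Most of these regulators were also among the spermatocyte markers above, so the lists overlap and are not independent. The tMAC complex and the testis-specific TAFs switch on many genes for sperm formation in spermatocytes. Of 13 tested members, 6 were called lower and 1 higher in cbc knockdown, and 8 lower and 2 higher in Pcf11 library 2 (background shares 37.8%, 36.3%, 36.4% and 32.6%). The tMAC gene aly went from 38.8 and 44.8 CPM to 20.3 and 18.5 in cbc knockdown and to 17.5 in Pcf11 library 2. The testis TAF gene sa went from 48.5 and 53.5 CPM to 26.7 and 24.1 and to 25.6. Both aly and sa were thus lower in both knockdowns (edgeR log2 fold changes in cbc knockdown -1.35 ± 0.10 and -1.25 ± 0.09). The gene wuc went from 39.7 and 40.5 CPM to 30.02 and 29.4 (-0.68 ± 0.09) and to 13.2. The testis TAF gene mia went the other way, at 0.52 ± 0.08 in cbc knockdown and 0.96 ± 0.09 in Pcf11 library 2. Summed over the list, the level was 602 and 661 CPM in the controls, 483 in Pcf11 library 2, then 646 and 652 with cbc knocked down. The median log2 fold change of the list in cbc knockdown was -0.19. Of 15 tested cleavage and polyadenylation factors, 4, the targeted cbc among them, were called lower and 9 higher in cbc knockdown, with Wdr33 (1.43 ± 0.08) and Cpsf160 (1.38 ± 0.09), subunits of the complex that recognises the poly(A) signal, farthest up, and 5 lower and 2 higher in Pcf11 library 2, where Wdr33 (1.08 ± 0.09) and Fip1 (-0.94 ± 0.13) were farthest from control after Pcf11, the target there (-1.11 ± 0.11). The Pcf11 library counts were 2 lower and 3 higher with DESeq2, 3 lower and 4 higher with RLE, and 3 lower without control 2. In that library wuc (-1.32 ± 0.11), nht (-1.09 ± 0.12) and aly (-0.97 ± 0.12) were the farthest of the regulators.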

How the data were processed

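Counts of reads per gene for 5 libraries, and of reads per splice junction for Pcf11 knockdown library 1, were analysed as the authors deposited them, with no scaling. Trim Galore, STAR, SAMtools, deepTools and the builds dm6 and BDGP6 appear in the submitters' processing notes, without versions. From the layout, the deposited gene counts are those of STAR, in which a read that maps to several places is left out, so genes with close copies are uncertain. The sense column was used. Reads assigned to no gene were left out of library totals (N_noFeature and N_ambiguous rows, 1.35% to 2.86% and 4.45% to 4.88% of uniquely mapped reads). The deposited maximum overhang, in bases, was read only for 1 junction that matched no annotated intron.

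Symbols and coordinates came from an Ensembl BDGP6 annotation that held 17710 of 17807 gene identifiers and need not be the release the authors used. RPKM is CPM per 1000 exonic bases. Genes reaching 10 counts in 2 or more libraries were fitted with edgeR 4.0.16 in R 4.3.3 (TMM, 3 genotypes together, 2 residual degrees of freedom, Benjamini-Hochberg adjustment over 13960 genes, threshold 0.05), after tests on simulated data. The Pcf11 contrast has 1 library, taken to vary like the others. Errors after log2 fold changes are SE, worked back as the absolute log2 fold change over the square root of the quasi-likelihood F statistic. Junctions were matched to annotated introns by coordinates and strand, and 0.5 reads were added per gene. Alternatives were DESeq2 1.42.0, RLE scaling, no filter, counts without regard to strand, each library left out, other limits and a replicate block. Named genes followed a rule: the extremes by control level, by each ratio and by junction ratio, those nearest each limit, neighbours changed at least 4-fold, and the list members with the largest changes. The genes, lists and rule were chosen with earlier results of these data known. Sequences were not used here.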

Additional observations from a re-analysis of the deposited data

Results flagged for a closer look

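In Pcf11 knockdown library 1, 279 uniquely mapped reads in CG3306 were split over a stretch of 21 bases that matches no annotated intron, with at most 6 bases on the shorter side. It was singled out because it lies outside the annotated introns used above, CG3306 has no annotated intron, and no control junction file was analysed. The cause was not tested.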

How the results depend on the processing

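The number of genes chosen moved from 22 to 62 with TMM, 75 with RLE, 47 with a cbc limit of 1 over 3 of control, 9 with a limit of 0.2, and 36 with a Pcf11 limit of 0.7. Counts without regard to strand left 18, with the cbc ratio of CG31126 at 0.645, and leaving out 1 library gave between 20 and 27, of which 18 to 22 were among the 22. The median cbc ratio of 0.207 was 0.175 with TMM and with RLE, and between 0.194 and 0.206 with 1 library left out. The median Pcf11 ratio was 1.22 with TMM, 1.35 with RLE, and between 0.961 and 1.01 with 1 control left out. The median junction ratio was between 0.66 and 0.76 with 1 control left out, 0.66 being without control 2. The log2 fold change of CG3088 in cbc knockdown turned to 0.0833 without regard to strand, and was -1.67 (edgeR adjusted p = 0.0517) without cbc library 2. Regulators called higher in cbc knockdown numbered 2 with RLE and between 1 and 2 with 1 library left out. Cleavage factors called lower in Pcf11 library 2 numbered 3 with RLE, 2 with DESeq2 and between 3 and 6 with 1 library left out, 3 being without control 2, and 4 were called higher with RLE. The replicate block gave 5208 genes lower and 5056 higher in cbc knockdown, and 4900 and 4287 in Pcf11 library 2, against 5270, 5074, 5075 and 4555. With RLE the Pcf11 library gave 4435 lower and 5283 higher. Same-numbered libraries of control and cbc knockdown did not deviate together from their group means (r = -0.035 across 13960 genes). This check left out Pcf11, which has 1 library with gene counts, and it cannot exclude a pairing by number. Depth limits CG11626, with 17 and 15 reads in the cbc libraries.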
